A study of Mus musculus with 3 samples.

Results

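The genes described here are 10 that act in antigen presentation by MHC class I: the heavy chain genes H2-K1, H2-D1, H2-Q7, H2-Q10 and H2-T23, the light chain gene B2m, the peptide transporter genes Tap1 and Tap2, the tapasin gene Tapbp and the immunoproteasome gene Psmb8. They were taken by their symbols from the 31053 genes of the deposited count matrix, and all 10 were found and measured (at least 20 unique molecular identifiers, UMIs, over all cell classes). The cells were leukocytes from the blood of C57/BL6J mice with no age or genetic change named in the labels, profiled one by one with a droplet kit that counts the 3′ ends of transcripts. There were 3 groups: Con (time 0 h), SD24h (sleep deprivation for 24 h) and SD48h (sleep deprivation for 48 h). Each group had 1 library from the pooled leukocytes of 3 mice after lysis of red cells, so single mice cannot be told apart. A condition of sleep restriction is part of the series' design and was not analysed here. Barcodes end in 1, 2 or 3, called library 1, 2 and 3 here. Which ending belongs to which group is not in the labels, so no group was compared with another, no time order was read, and every value is given for each library.

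MHC class I molecules carry short peptides from the inside of the cell to its surface, where CD8 T cells and the receptors of natural killer cells read them. Proteasomes cut the peptides, Tap1 and Tap2 together pump them into the endoplasmic reticulum, tapasin holds the empty heavy chain at the pump, and the heavy chain leaves for the surface once bound to beta-2 microglobulin and a peptide. Interferons raise the transcription of most genes of this pathway, and nearly all nucleated cells carry the classical molecules encoded by H2-K1 and H2-D1.

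Over the 3 libraries, 6864, 5775 and 5578 cells were kept, with 34115699, 26145641 and 31978710 UMIs. They fell into NK-like, T-like, B-like, monocyte-like, neutrophil-like and erythroid-like classes named from marker genes, and 40, 27 and 23 cells stayed unnamed. Library 1 stood apart. The 3 libraries held 542, 3261 and 2001 neutrophil-like cells, those of library 1 nearly all in a cluster of their own. The 10 platelet markers, all present in each library, summed to 9195, 2729 and 2480.4 CPM in that class. CPM are UMIs per 1000000 UMIs of the same class and library. They are relative: S100a8, S100a9 and haemoglobin genes took 12.7%, 27.2% and 31.4% of the UMIs of neutrophil-like cells and at most 1.53% in the NK-like, T-like, B-like and monocyte-like pools, so CPM in neutrophil-like cells are held down. With factors from the trimmed mean of M-values (TMM), which leaves out extreme genes, scaling would raise neutrophil-like cells against B-like cells by 0.25, 1.06 and 1.20 on the log2 scale. Orders given below are on the CPM scale unless TMM is named. Many turns under TMM are given for the 10 genes, but not every one, and none for the other pathway genes. Between 17 and 23 barcode sequences were shared by any 2 libraries. Intervals are exact 95% intervals and cover counting error only.

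The 10 genes together made up 0.923, 1.0001 and 0.969% of the UMIs of NK-like cells in libraries 1, 2 and 3, the highest share of any named class, though with TMM neutrophil-like cells had the highest sum of the 10 genes in each library. T-like cells gave 0.647, 0.659 and 0.683%, monocyte-like cells 0.729, 0.569 and 0.725% and B-like cells 0.542, 0.547 and 0.589%. The share in neutrophil-like cells was 0.695, 0.479 and 0.411%, and erythroid-like cells had the lowest with 0.06696, 0.0911 and 0.184%. A gene was said to have a fixed leading class when the same of the 5 leukocyte classes had its highest CPM in every library and the interval of the ratio to the next class excluded 1 in each. This held for 3 of the 10 genes (H2-K1 and H2-Q7 in NK-like cells, H2-Q10 in neutrophil-like cells), against 20.7% of the 13213 genes measured. By class, NK-like cells held 2 of the 10, against 3.43% of all genes, and neutrophil-like cells 1, against 5.51%. With a ratio of at least 1.5 as well, 2 of the 10 remained (H2-Q7 and H2-Q10), against 15.4% of all genes. The members' count of 3 is near the background, so a fixed leading class does not set the 10 genes apart. The genes divided by level instead: H2-Q7 and H2-Q10 differed between classes by more than 30 times, while H2-T23 was within 1.43, 1.37 and 1.36 times between its highest and lowest class on this scale.

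**Figure D1:**
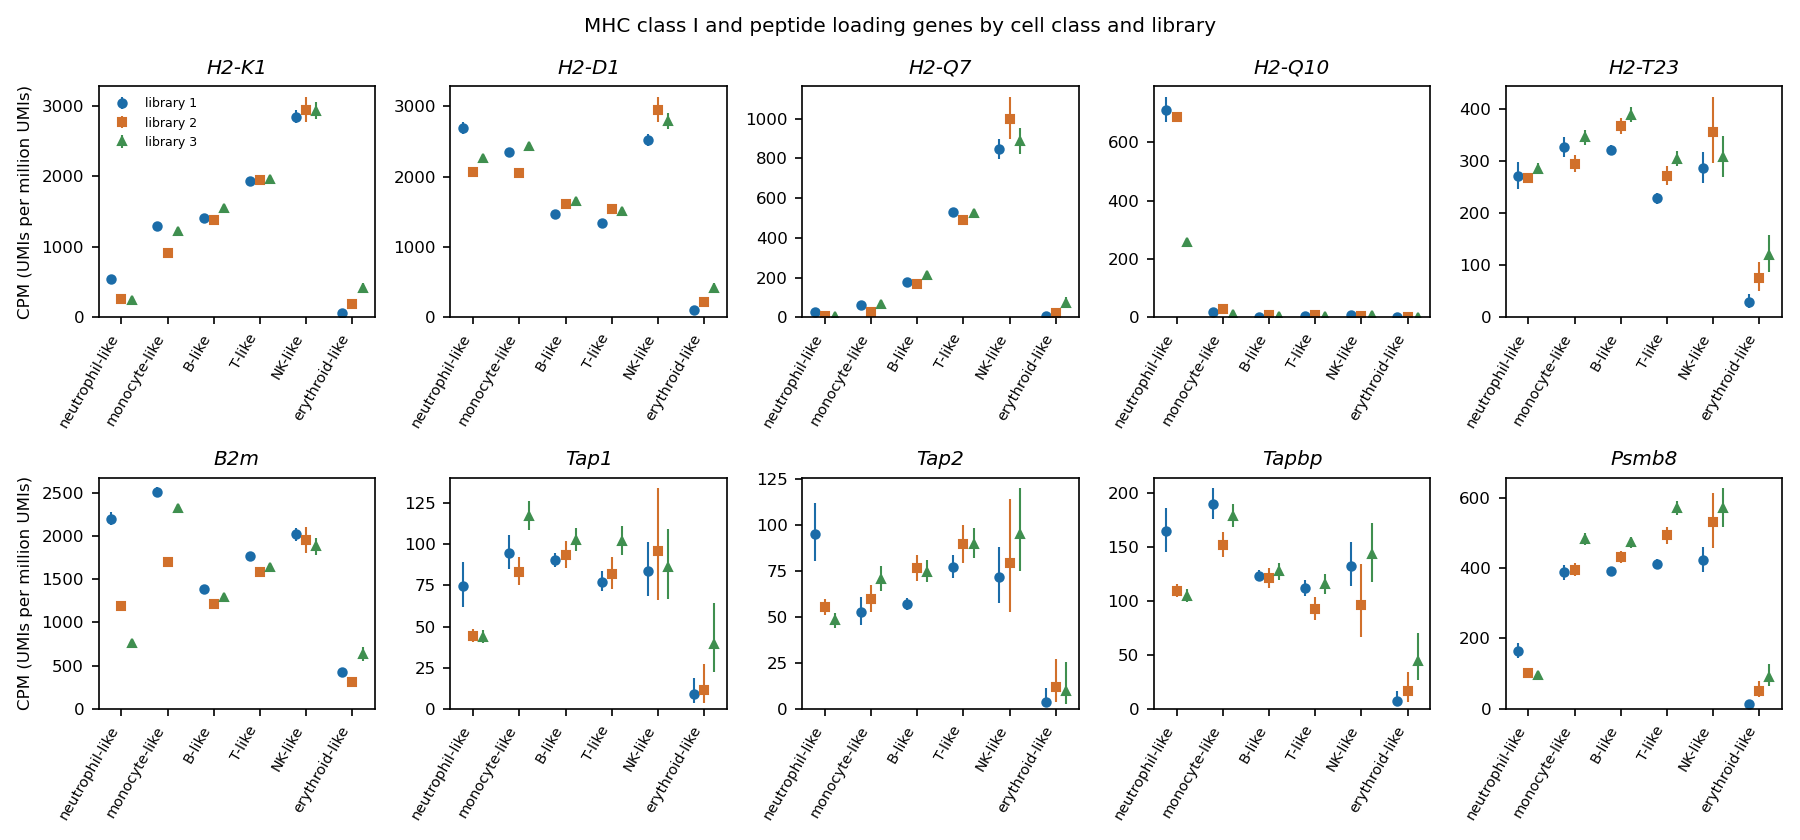
Each panel plots 1 gene as CPM (UMIs per 1000000 UMIs of the pool, axis starting at 0) in 6 cell classes, with circles, squares and triangles for libraries 1, 2 and 3 and bars for exact 95% Poisson intervals. H2-K1 and H2-Q7 climb from neutrophil-like to NK-like cells in all 3 libraries, and H2-Q10 is high in neutrophil-like cells alone, at 712, 688 and 257 CPM.

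H2-K1 (chr17:33996017-34000347, minus strand, build GRCm38, like the positions below) encodes the classical heavy chain H-2K. Its order of classes was the same in each library: NK-like cells had 2842, 2941 and 2930.3 CPM, T-like cells 1934, 1948 and 1967 CPM and B-like cells 1411, 1386 and 1557 CPM. Monocyte-like cells followed with 1298, 912 and 1225 CPM, neutrophil-like cells with 547, 265 and 242 CPM, and erythroid-like cells had 66.8, 189.6 and 412 CPM. NK-like over T-like cells gave ratios of 1.47 (95% interval 1.42 to 1.52), 1.51 (1.41 to 1.61) and 1.49 (1.42 to 1.56). Of the leukocyte classes T-like cells varied least, with all 3 libraries within 1.02 times of each other, and neutrophil-like cells most. The lead of NK-like cells rests on the scaling: with TMM, H2-K1 stood at 2102, 2098 and 2266 CPM in NK-like and 2053, 1962 and 2063 CPM in T-like cells, and the call was lost. The low place of neutrophil-like cells held under TMM, at 594, 496 and 508 CPM.

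H2-D1 (chr17:35262730-35267499, plus strand) encodes H-2D, the other classical heavy chain of this strain, and was the most counted of the 10 genes. NK-like cells had 2516, 2949.8 and 2787 CPM, neutrophil-like cells 2692, 2062 and 2259 CPM and monocyte-like cells 2347, 2047 and 2429 CPM. B-like cells had 1466, 1605 and 1655 CPM and T-like cells 1333, 1535 and 1505 CPM, the reverse of their order for H2-K1. TMM ended this reversal, with H2-D1 at 1338, 1437 and 1513 CPM in B-like and 1415, 1547 and 1577 CPM in T-like cells. In every library the NK-like, neutrophil-like and monocyte-like classes all lay above the B-like and T-like classes, on either scale, and which of them was highest changed between libraries. Under TMM neutrophil-like cells led in all 3 libraries, with 2924, 3857 and 4741 CPM against 1860.3, 2104 and 2155 CPM in NK-like cells.

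The ratio of H2-K1 to H2-D1 UMIs within a pool is free of the scaling, and it set the classes apart. Neutrophil-like cells had 0.203, 0.129 and 0.107 H2-K1 UMIs for each H2-D1 UMI in libraries 1, 2 and 3, and monocyte-like cells had 0.553, 0.446 and 0.504. The ratio was 0.963, 0.864 and 0.9403 in B-like, 1.13, 0.997 and 1.05 in NK-like and 1.45, 1.27 and 1.31 in T-like cells. Neutrophil-like cells thus held several H2-D1 UMIs for each of H2-K1 in every library, and T-like cells held more of H2-K1 than of H2-D1. In neutrophil-like cells the 3 intervals (0.189 to 0.219, 0.124 to 0.134 and 0.103 to 0.111) did not overlap between libraries. Where the same ratio was taken in every cluster and library with at least 20 cells, 14 neutrophil-like pools ranged between 0.0898 and 0.255 and 8 monocyte-like pools between 0.417 and 0.636. The 27 B-like pools ranged between 0.786 and 1.07 and the 12 T-like pools between 1.19 and 1.51. The ranges of these 4 classes did not overlap, and NK-like cells (0.997 to 1.13) lay within the gap and the top of the B-like range. Of the 50-base words of the last 400 bases of their transcripts, 10.2% for H2-K1 and 10.1% for H2-D1 also occur in other genes, so part of the counts could move between related genes, and how that touches the ratio was not tested.

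**Figure D2:**
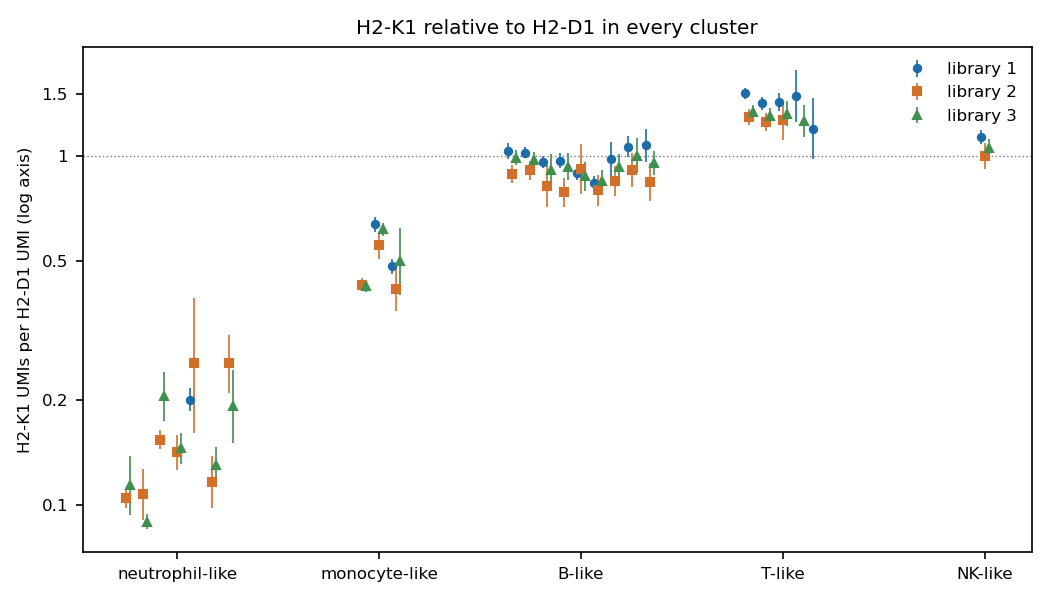
H2-K1 UMIs per H2-D1 UMI (log axis) in every cluster with at least 20 cells of a library, grouped by class along the x axis, with circles, squares and triangles for libraries 1, 2 and 3 and bars for exact 95% intervals; the dotted line marks 1. Neutrophil-like pools lie between 0.0898 and 0.255 and T-like pools between 1.19 and 1.51.

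H2-Q7 (chr17:35439155-35443773, plus strand) encodes Qa-2, a non-classical heavy chain that can be held at the surface by a lipid anchor. It followed the class order of H2-K1 with wider steps. NK-like cells had 847, 999 and 886 CPM and T-like cells 529, 488 and 527 CPM, ratios of 1.601 (95% interval 1.496 to 1.71), 2.05 (1.82 to 2.296) and 1.68 (1.54 to 1.83), and this lead held under TMM. B-like cells had 179, 170.0 and 214 CPM, monocyte-like cells 64.1, 25.5 and 68.1 CPM and neutrophil-like cells 27.7, 8.44 and 8.91 CPM. Its highest class was 30.6, 118 and 99.5 times its lowest among the leukocyte classes. Depth differs between classes, so each cell was also thinned to 1500 UMIs before counting cells with at least 1 UMI. After thinning 65.3, 73.4 and 70.1% of NK-like, 53.2, 50.5 and 52.3% of T-like and 21.7, 21.01 and 26.4% of B-like cells had an H2-Q7 UMI (unthinned 91.6, 93.9 and 93.5%, 89.5, 86.6 and 89.2% and 47.8, 44.1 and 50.6%). In neutrophil-like cells the thinned share was 3.48, 1.11 and 1.27%, and in erythroid-like cells, which hold little of this pathway, 0, 6.35 and 5.56%. Median depths were 2746, 3232 and 5142 UMIs in neutrophil-like and 5369, 6968 and 5255 UMIs in erythroid-like cells. The neutrophil-like share was below the erythroid-like one in libraries 2 and 3. Erythroid-like cells of these libraries also held much RNA of Igkc, a gene highest in B-like cells, at 1608 and 1412 CPM. For neutrophil-like cells the Igkc values were 60.2 and 79.7 CPM. The erythroid-like share is thus no measure of background for neutrophil-like cells, and whether their H2-Q7 is background was not tested. In library 1 none of 132 thinned erythroid-like cells had an H2-Q7 UMI, which allows a share of up to 2.76%.

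H2-Q10 (chr17:35470089-35474563, plus strand) encodes a heavy chain known in mice as a secreted serum protein made in the liver. In this blood it was highest in neutrophil-like cells, the leukocyte class where H2-Q7 was lowest. Neutrophil-like cells had 712, 688 and 257 CPM and the next class, monocyte-like cells, 19.5, 28.9 and 10.2 CPM, ratios of 36.5 (95% interval 28.7 to 47.2), 23.8 (20.004 to 28.6) and 25.1 (19.5 to 32.8). B-like cells had 2.76, 7.03 and 4.79 CPM, T-like cells 4.65, 7.796 and 4.69 CPM and NK-like cells 9.33, 5.65 and 6.52 CPM. Thinned to 1500 UMIs, 60.9, 58.8 and 31.5% of neutrophil-like cells had an H2-Q10 UMI, against 2.72, 3.15 and 1.18% of monocyte-like, 0.389, 1.11 and 0.312% of B-like, 0.2496, 1.36 and 0.376% of T-like and 0, 0 and 1.39% of erythroid-like cells (unthinned 75.1, 76.8 and 54.3% of neutrophil-like and 5.45, 12.5 and 6.78% of monocyte-like cells). Shares of the NK-like, T-like, monocyte-like and B-like classes had intervals that overlap those of erythroid-like cells in every library. The latter rest on 132, 63 and 72 thinned cells and reach up to 2.76, 5.69 and 7.50%, so the overlap decides little. In CPM the monocyte-like interval lay above the erythroid-like one in libraries 1 (15.2 to 24.6 against 0 to 4.74) and 2 (24.1 to 34.3 against 0.0593 to 13.04), but not in library 3. That of NK-like cells did so in library 1 alone (4.82 to 16.3). Whether these counts are background was not tested, and no expression is read from them. The liver gene Alb, looked up after the H2-Q10 values were seen, had 0 UMIs in every class and library, and Apoa1 had 2 in B-like cells of library 1. H2-Q10 shares 0.570% of its 3′ 50-base words with other genes, all with H2-Q7, which was lowest where H2-Q10 was highest.

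The low H2-Q10 counts outside neutrophil-like cells can be set against S100a8, a gene highest in neutrophil-like cells and counted in every class. In monocyte-like cells there were 14.8, 5.25 and 2.65 H2-Q10 UMIs per 1000 S100a8 UMIs, against 11.1, 5.92 and 1.76 in neutrophil-like cells of the same libraries. B-like cells had 93.4, 16.9 and 13.8 and T-like cells 212, 26.6 and 18.1 per 1000. Monocyte-like cells thus carried the pair in a proportion nearer to that of neutrophil-like cells than B-like and T-like cells did, and B-like and T-like cells had more H2-Q10 for each S100a8 UMI.

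H2-T23 (chr17:36029773-36032855, minus strand) encodes Qa-1, which presents leader peptides of other class I molecules to CD94 and NKG2 receptors. On the CPM scale it was among the most even of the 10 genes, with Tap1 more even in library 1. B-like cells had 321, 366 and 389 CPM, monocyte-like cells 327, 295 and 345 CPM and NK-like cells 286, 356 and 307 CPM. Neutrophil-like cells had 271, 268 and 285 CPM and T-like cells 228, 271 and 304 CPM. With TMM it was less even, as neutrophil-like cells led, by little in library 1, with 294, 501 and 599 CPM, against 212, 254 and 237 CPM in NK-like cells, then the lowest. B-like and monocyte-like cells did not differ beyond counting error in library 1, nor B-like and NK-like cells in library 2. Its 3′ end is the least private of the 10, with 36.2% of 50-base words found in other genes, most of them unrelated.

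As shares of the summed heavy chain UMIs, which also need no scaling, neutrophil-like cells were mostly H2-D1, with 63.3, 62.6 and 74.02% in libraries 1, 2 and 3. H2-Q10 had 16.8, 20.9 and 8.41% there, H2-K1 12.9, 8.06 and 7.93% and H2-T23 6.38, 8.14 and 9.35%. H2-Q10 thus came next after H2-D1 in libraries 1 and 2, and H2-T23 did in library 3. T-like cells were led by H2-K1 with 48.01, 45.8 and 45.7%, then H2-D1 with 33.1, 36.1 and 34.9% and H2-Q7 with 13.1, 11.5 and 12.2%. NK-like cells had nearly equal parts of H2-K1 (43.7, 40.6 and 42.4%) and H2-D1 (38.7, 40.7 and 40.3%) and 13.03, 13.8 and 12.8% H2-Q7. The make-up of the NK-like, T-like and B-like pools moved by less than 4 percentage points between libraries for each heavy chain. In neutrophil-like cells library 3 had less H2-Q10 and more H2-D1 than the other libraries.

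**Figure D3:**
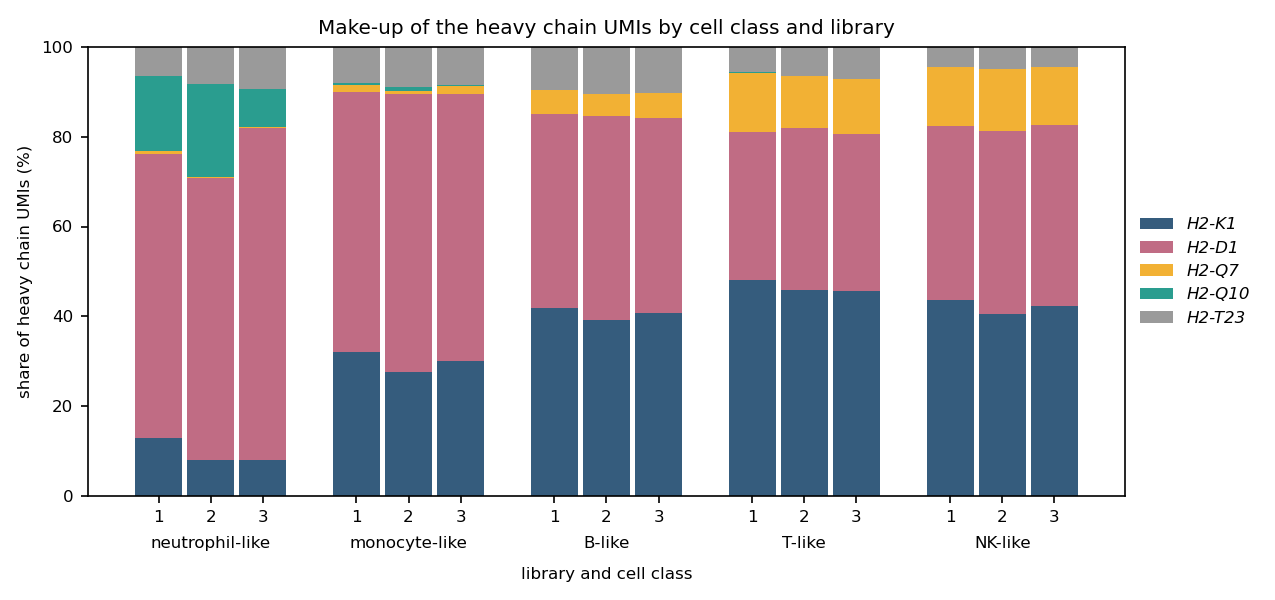
Each stacked bar is 1 library of 1 cell class and shows the share (%) of the summed UMIs of 5 heavy chain genes. H2-Q10 (green) makes up 16.8, 20.9 and 8.41% in neutrophil-like cells of libraries 1, 2 and 3, and H2-Q7 (yellow) 13.1, 11.5 and 12.2% in T-like cells.

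The promoters of 4 of the heavy chain genes are shown. Among the leukocyte classes H2-K1 and H2-Q7 were lowest in neutrophil-like cells, and H2-Q10 was highest there. Whether the promoters bear on this was not tested. The sequences are the 200 bases before the gene start in RefSeq, build GRCm38.p6 (for H2-D1 a start inside the gene as GENCODE gives it), written 5′ to 3′ along the gene: chr17:34000348-34000547 on the minus strand, chr17:35262894-35263093 on the plus strand, chr17:35438955-35439154 on the plus strand and chr17:35469889-35470088 on the plus strand. Capitals mark 4 motifs searched on both strands: GGGGATTCCC (a kappa B site), TTTCACTT (the core of an interferon response element), TGACG (the core of an X2 box) and CCAAT (the core of a Y box, ATTGG on the other strand).
H2-K1: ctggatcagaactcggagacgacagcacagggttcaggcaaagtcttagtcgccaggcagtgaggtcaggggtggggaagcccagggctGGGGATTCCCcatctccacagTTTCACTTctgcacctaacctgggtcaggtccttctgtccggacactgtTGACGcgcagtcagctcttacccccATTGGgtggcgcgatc
H2-D1: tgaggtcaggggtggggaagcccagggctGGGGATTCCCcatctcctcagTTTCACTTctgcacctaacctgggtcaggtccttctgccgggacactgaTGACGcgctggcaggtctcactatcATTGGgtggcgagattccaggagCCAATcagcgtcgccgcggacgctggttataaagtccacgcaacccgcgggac
H2-Q7: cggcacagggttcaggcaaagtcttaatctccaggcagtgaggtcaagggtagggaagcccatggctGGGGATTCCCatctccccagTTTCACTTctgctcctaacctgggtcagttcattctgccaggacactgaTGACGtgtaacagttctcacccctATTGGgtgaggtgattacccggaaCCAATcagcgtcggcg
H2-Q10: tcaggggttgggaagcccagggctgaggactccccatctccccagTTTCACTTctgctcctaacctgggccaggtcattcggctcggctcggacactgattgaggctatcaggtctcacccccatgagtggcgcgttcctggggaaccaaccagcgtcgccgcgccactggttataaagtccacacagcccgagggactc
H2-K1, H2-D1 and H2-Q7 each held all 4 motifs, and of 27025 RefSeq promoters they were the 3 that did (0.0111%). Singly, GGGGATTCCC was in 0.0629% of promoters, TTTCACTT in 1.09%, TGACG in 15.8% and CCAAT in 30.02%. H2-Q10 held TTTCACTT alone. Its closest match to the kappa B site was GAGGACTCCC with 2 mismatches, a closeness found in 13.5% of all promoters. The letters of the kappa B site were read from the H2-K1 promoter and the others chosen with these promoters in view, so the shares only describe how common each is, and a match is not a site shown to be used. H2-D1 held the same motifs as H2-K1 and H2-Q7 but did not share their class order. Of the other members in the table, B2m held TGACG and CCAAT, Tap1 TGACG, H2-T23 and Tapbp CCAAT, and Psmb8 none.

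B2m (chr2:122147686-122153083, plus strand) encodes beta-2 microglobulin, the light chain shared by all class I molecules, and lies outside the MHC on chromosome 2. Monocyte-like cells had 2509, 1694 and 2329 CPM and NK-like cells 2017, 1948 and 1880.0 CPM. T-like cells had 1763, 1582 and 1643 CPM and B-like cells 1383, 1217 and 1295 CPM. Neutrophil-like cells had 2201, 1190.1 and 763 CPM, second of the leukocyte classes in library 1 and last in libraries 2 and 3. In library 2 its interval overlapped that of B-like cells. TMM put neutrophil-like cells first in libraries 1 and 2 and above NK-like and B-like cells in library 3, at 2391, 2226 and 1602 CPM. It also put T-like cells, at 1871, 1593 and 1723 CPM, above NK-like cells, at 1492, 1389 and 1454 CPM. The summed heavy chain UMIs per B2m UMI were 3.22, 3.72 and 3.68 in NK-like, 2.44, 2.91 and 2.95 in B-like, 2.29, 2.69 and 2.62 in T-like and 1.62, 1.95 and 1.75 in monocyte-like cells. In neutrophil-like cells the ratio was 1.93, 2.77 and 3.997, the only leukocyte class that differed by more than 1.5 times between libraries in this measure. Monocyte-like cells had the lowest ratio of the leukocyte classes in each library. These are UMI ratios between genes, and how well each 3′ end is captured is not known, so they compare pools and not amounts of protein.

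Psmb8 (chr17:34197721-34201454, plus strand) encodes LMP7, a catalytic subunit that replaces Psmb5 in the immunoproteasome. NK-like cells had 424, 531 and 570.1 CPM and T-like cells 411, 493 and 569 CPM, a difference within counting error in all 3 libraries. B-like cells had 390.2, 431 and 473 CPM, monocyte-like cells 387, 396 and 482 CPM and neutrophil-like cells 164, 101 and 95.2 CPM. Neutrophil-like cells were thus the lowest leukocyte class in each library, and stayed so under TMM at 178, 188 and 199.9 CPM. With TMM T-like cells led in all 3 libraries, at 436, 497 and 597 CPM.

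Tap1 (chr17:34187553-34197225, plus strand) lies next to Psmb8 in the MHC. Monocyte-like cells had 94.97, 83.3 and 117 CPM, B-like cells 90.5, 93.5 and 103 CPM, NK-like cells 83.99, 95.97 and 86.1 CPM and T-like cells 77.4, 82.2 and 102 CPM. Neutrophil-like cells had 74.7, 44.3 and 43.8 CPM, the lowest of these in each library. In library 1 their interval (61.7 to 89.6 CPM) overlapped that of every other leukocyte class. TMM brought neutrophil-like cells to 81.1, 82.8 and 91.99 CPM, against 82.6, 83.7 and 93.9 CPM in B-like cells. Tap2 (chr17:34203527-34216321, plus strand), the other part of the transporter, had 77.3, 89.4 and 89.6 CPM in T-like, 71.5, 79.04 and 95.2 CPM in NK-like and 56.8, 76.3 and 74.6 CPM in B-like cells. Monocyte-like cells had 52.6, 59.6 and 70.7 CPM of Tap2 and neutrophil-like cells 95.3, 55.1 and 48.01 CPM. Against B-like cells, neutrophil-like cells had less Tap2 in libraries 2 and 3, which TMM turned round.

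Tapbp (chr17:33915899-33929292, plus strand) was highest in monocyte-like cells in each library, at 189.9, 152 and 179 CPM. The interval of the ratio to the next class included 1 in library 1 (1.15, 0.997 to 1.34), so the class was not fixed. With TMM neutrophil-like cells were highest in each library, at 179, 205 and 220.2 CPM against 161, 136 and 161 CPM in monocyte-like cells. On the CPM scale neutrophil-like cells had 165, 109.7 and 105 CPM, NK-like cells 133, 95.97 and 144 CPM, B-like cells 123, 121 and 128 CPM and T-like cells 112, 92.95 and 116 CPM. In libraries 1 and 3 TMM put NK-like cells, at 98.3 and 111 CPM, below B-like cells, at 113 and 117 CPM. TMM also turned round the order of neutrophil-like and B-like cells in libraries 2 and 3 for Tapbp and for H2-T23, both lower in neutrophil-like cells on the CPM scale. In CPM the 3 loading genes Tap1, Tap2 and Tapbp each stayed within 2.68 times between the highest and the lowest leukocyte class of a library.

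Single cells of each leukocyte class differed from each other by more than counting noise, and monocyte-like cells by the most. At 1500 UMIs per cell the 10 genes summed to a median of 13, 14 and 15 UMIs in NK-like, 11, 8 and 11 in monocyte-like and 9.5, 10 and 10 in T-like cells. B-like cells had a median of 8, 8 and 9, neutrophil-like cells 10, 7 and 6 and erythroid-like cells 1, 0 and 2. The variance over the mean, which is 1 for counting noise alone, was 1.28, 1.28 and 1.42 in B-like and 1.27, 1.41 and 1.72 in T-like cells. It was 1.76, 1.66 and 1.60 in NK-like and 1.49, 1.90 and 1.76 in neutrophil-like cells. It was highest among the leukocyte classes in monocyte-like cells, at 2.57, 1.97 and 3.57, the class whose clusters are described below. Less than 0.6% of the cells of any leukocyte class and library had none of the 10 genes, against 46.97, 53.97 and 27.8% of erythroid-like cells.

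The spread over the 3 libraries depended on the class. In neutrophil-like cells 8 of the 10 genes were at least 1.5 times apart between the highest and the lowest library with an interval excluding 1, against 60.9% of all 9351 genes measured there. All 8 were highest in library 1, like 49.1% of all the genes measured. The members' median ratio was 1.85, against 2.03 over all genes and 1.71 over the genes with at least 1000 UMIs in the class, as 9 of the 10 members had. H2-D1 and H2-T23 were the exceptions, at 1.31 and 1.06 times. Scaled by TMM within the class 5 genes passed (H2-Q7 and B2m highest in library 1, H2-Q10 in library 2, H2-D1 and H2-T23 in library 3), and TMM also moved the highest library to 3 for Tap1, Tapbp and Psmb8, which did not pass. The order of libraries thus depends on the scaling, and library 1 was highest on both scales for H2-K1, H2-Q7, B2m and Tap2. The platelet markers in neutrophil-like cells of library 1, given above, moved with these genes, and their part was not tested.

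In the other classes the libraries were close. Monocyte-like cells had 2 such genes, H2-Q7 (2.67 times, highest in library 3, like 6.32% of all genes) and H2-Q10 (2.83 times, highest in library 2, like 6.25%), against 26.8% of all genes in any library. With finer clusters, where a cluster that held 217 of the 404 cells of library 1 was left unnamed, H2-Q7 was highest in library 1. The Cd300e-led cluster described below, which is high in H2-Q7, held 180, 66 and 209 of the 404, 416 and 516 monocyte-like cells, and its part in the H2-Q7 spread was not tested. B-like cells had 1, H2-Q10 at 2.54 times on 130 UMIs, against 10.6%. T-like cells had 0 of 10, against 13.3%, and NK-like cells 0 of 9, against 12.5%, where H2-Q10 fell below 20 UMIs. Median ratios of the members were 1.38 in monocyte-like, 1.17 in B-like, 1.20 in T-like and 1.18 in NK-like cells, against 1.37, 1.21, 1.27 and 1.44 over all genes.

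Within monocyte-like cells the members differed between clusters. Cells were clustered more finely without the members and the other pathway genes, and a cluster was set against the rest of its class in each library with at least 20 cells on both sides. A cluster led by Cd300e, Fabp4 and Cd36 held all 7 markers of non-classical monocytes, the vessel-patrolling kind, with 180, 66 and 209 cells. There H2-K1, H2-D1, H2-Q7 and B2m were at least 1.5 times higher in every library with intervals excluding 1 (called higher in what follows), that is 4 of the 10 genes, against 7.11% of all genes. H2-K1 had 2108, 1788 and 2301 CPM in the cluster and 929, 821 and 824 CPM in the other monocyte-like cells, ratios of 2.27, 2.18 and 2.79. For H2-Q7 the cluster had 140.4, 119 and 198 CPM and the others 29.2, 15.8 and 19.9 CPM, ratios of 4.81, 7.51 and 9.93. H2-D1 gave ratios of 1.74, 1.68 and 1.93 and B2m 1.88, 1.88 and 2.097. The other 6 genes were not called: Psmb8 gave 0.955, 0.899 and 1.14, Tap1 0.975, 0.783 and 1.61 and H2-T23 0.862, 0.672 and 1.12. The median ratio over all genes was 1.11, 1.13 and 1.11.

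H2-K1 per H2-D1 UMI was 0.636, 0.553 and 0.615 in the Cd300e-led cluster and 0.428 and 0.423 in the cluster led by Vcan, Saa3 and Prtn3 (5 markers of classical and 4 of non-classical monocytes, libraries 2 and 3). In that cluster H2-K1 and H2-Q7 were lower than in the other monocyte-like cells, 2 of the 10 genes against 6.84% of all. Those other cells were mostly of the Cd300e-led cluster (66 and 209 cells in libraries 2 and 3). The lower values thus mirror its high H2-K1 and H2-Q7 and are no separate result. The ratios in libraries 2 and 3 were 0.573 and 0.377 for H2-K1 and 0.212 and 0.112 for H2-Q7. T cell markers summed to 163, 247 and 175 CPM in the Cd300e-led cluster and 119.6, 21.3 and 56.99 CPM in the other monocyte-like cells, with 14, 13 and 14 of 15 markers present, and the T cell gene Cd8b1 was among the genes called higher. The same markers summed to 7608, 8461 and 8269 CPM in T-like cells, where H2-Q7 was higher than in the cluster. The T-like cells' own H2-K1 and B2m levels were below those of the cluster in libraries 1 and 3 for H2-K1 and in all 3 for B2m. Of 45 other pathway genes measured in monocyte-like cells, 6 were higher in the Cd300e-led cluster (H2-Q6, Fcgrt, Hfe, Lnpep, Tapbpl and Cd8b1) and Sec61b, a subunit of the protein channel of the endoplasmic reticulum, was lower. H2-Q6, another Qa-2 gene, had 57.8, 40.4 and 51.1 CPM there and 9.73, 2.23 and 1.81 CPM in the other monocyte-like cells.

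In the B-like, T-like and neutrophil-like classes a cluster was led by interferon-stimulated genes, and there other members were called. The B-like one (Ifit3, Ifit1, Usp18; 90, 74 and 153 cells) had higher H2-T23 and Tapbp in every library, 2 of the 10 genes against 0.867% of all. H2-T23 had 522, 584 and 617 CPM in the cluster and 317, 353 and 367 CPM in the other B-like cells, ratios of 1.65, 1.65 and 1.68. Tapbp had 209.7, 178 and 208 CPM and 122, 118 and 119.9 CPM, ratios of 1.73, 1.51 and 1.73. Tap1 gave 2.04, 1.89 and 1.34 and Psmb8 1.35, 1.23 and 1.19, all with intervals above 1 but not all reaching 1.5. The classical genes moved less than H2-T23, Tapbp, Tap1 and Psmb8, with 1.22, 1.06 and 1.15 for H2-K1 and 1.09, 1.09 and 1.14 for H2-D1. The median ratio over all genes was 0.944, 0.953 and 0.947.

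The T-like cluster (Ifit3b, Rsad2, Ifit3; 24 and 58 cells in libraries 1 and 3) had the same 2 members higher, against 1.18% of all genes. H2-T23 had 416 and 536 CPM in the cluster and 224 and 286 CPM in the other T-like cells of libraries 1 and 3. Tapbp gave ratios of 1.95 and 2.46, Tap1 2.103 and 1.42 and Psmb8 1.58 and 1.44, while H2-K1 gave 1.08 and 1.13 and H2-Q7 1.04 and 1.09. In neutrophil-like cells (Ifit1, Isg15, Rsad2; 313 and 300 cells in libraries 2 and 3) the 2 called genes were Tap1 and Psmb8, against 1.44% of all genes. Tap1 had 75.3 and 81.2 CPM in the cluster and 41.3 and 39.01 CPM in the other neutrophil-like cells, and Psmb8 157 and 154 CPM and 95.1 and 87.7 CPM. H2-T23 gave 1.42 and 1.31 there and Tapbp 1.19 and 1.22. In the B-like and T-like clusters Tap1, Tapbp and H2-T23 thus had larger ratios than H2-K1 and H2-D1 in every library tested. Among other pathway genes, H2-T22, which encodes a ligand of gamma delta T cell receptors, was called higher in the B-like (1.505, 2.39 and 1.85) and T-like (1.602 and 2.06) clusters. Whether the clusters differ from each other was not tested.

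Monocyte-like cells of a finer cluster led within the class by Rsad2, Lpl and Smim5 (217, 28 and 30 cells) met 6 of the interferon markers, but had 0 of the 10 genes called higher, against 0.144% of all, and 0 called lower, against 0.278%. The cluster as a whole was left unnamed, as markers of another class led it. Tap1 gave ratios of 0.941, 1.42 and 0.459 there, H2-T23 1.16, 1.35 and 1.09 and Psmb8 0.979, 1.38 and 1.14. H2-K1 gave 0.436, 0.988 and 0.696 and B2m 0.5304, 0.8804 and 0.7796. In library 1 the cells it was set against were nearly all of the Cd300e-led cluster, which holds high H2-K1 and B2m.

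**Figure D4:**
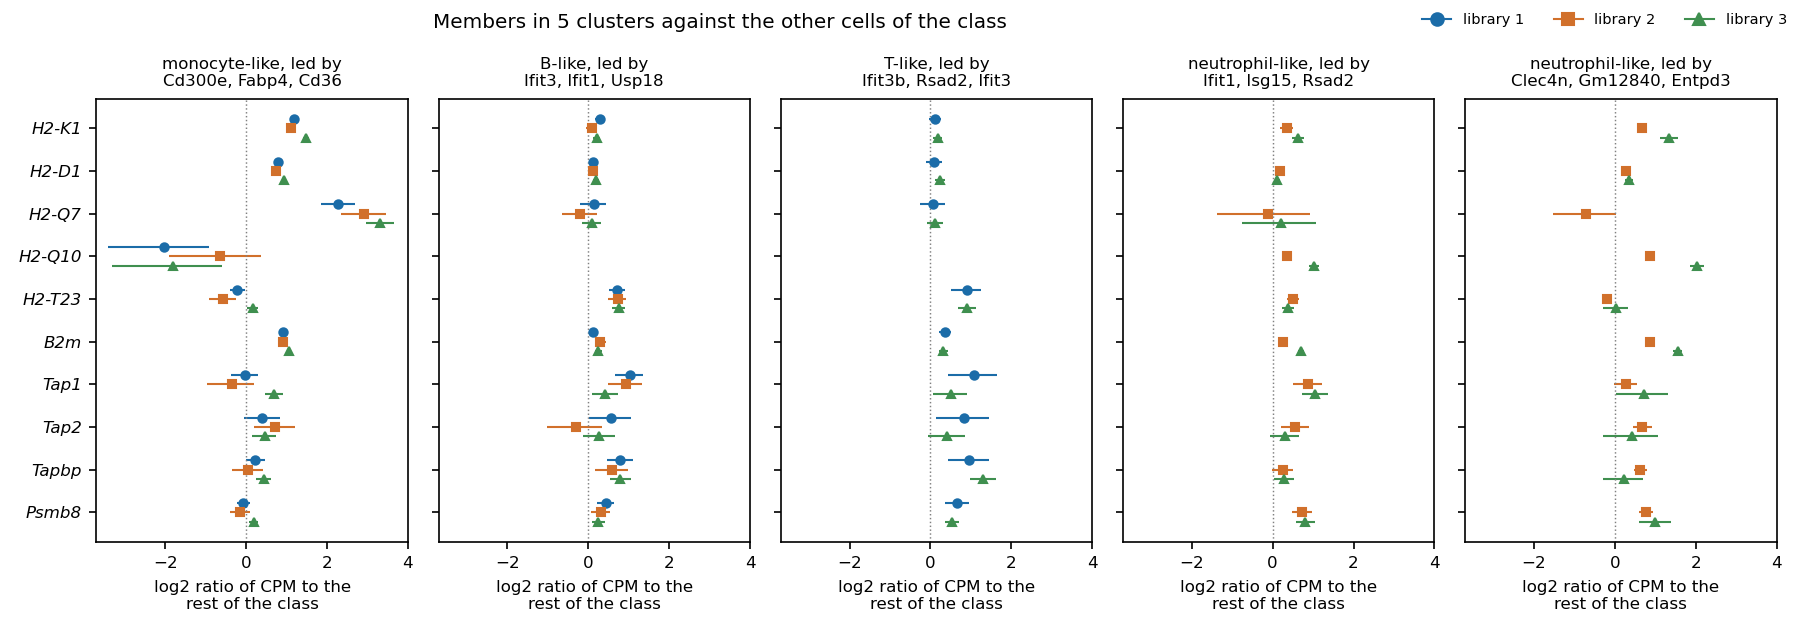
Each panel shows, for 1 cluster, the log2 ratio of CPM in the cluster to the other cells of its class for the 10 genes (rows), with circles, squares and triangles for libraries 1, 2 and 3 and bars for exact 95% intervals; genes with under 5 UMIs on either side are not drawn. H2-K1, H2-D1, H2-Q7 and B2m lie right of 0 in the Cd300e-led cluster, and H2-T23 and Tapbp in the interferon-gene-led B-like and T-like clusters.

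Neutrophil-like cells also varied along their other clusters. A cluster led by Clec4n, Gm12840 and Entpd3 (1110 and 122 cells in libraries 2 and 3) had higher H2-K1, H2-Q10, B2m and Psmb8, 4 of the 10 genes against 11.8% of all. H2-Q10 had 1024 and 971 CPM in the cluster and 564 and 236 CPM in the other neutrophil-like cells, and B2m 1786 and 2125 CPM and 971 and 724 CPM. All genes had a median ratio of 1.32 and 1.48 there, and neutrophil markers summed to less in the cluster (192386 and 149331 CPM) than in the others (333862 and 368976 CPM), so part of any rise in CPM goes with the totals. Platelet markers summed to 3299 and 4618 CPM in the cluster and 2518 and 2419 CPM in the others, and their part was not tested. Free of the totals, H2-K1 per H2-D1 UMI was 0.154 and 0.205. A cluster led by Ngp, Itgb2l and Cd177 (169 and 1143 cells) met 3 markers of younger neutrophils, as did a cluster led by Osm, where no member was called. The Ngp-led cluster had lower H2-Q10 and B2m, 2 of the 10 genes against 8.12% of all. The ratios in libraries 2 and 3 were 0.446 and 0.434 for H2-Q10 and 0.469 and 0.5199 for B2m, beside a median of 0.748 and 0.776 over all genes. Platelet markers were lower as well, with 1603 and 1695 CPM in the cluster and 2817 and 4280.4 CPM in the other neutrophil-like cells, and their part was not tested. Its heavy chain UMIs per B2m UMI were 4.27 and 4.88, against 2.24 and 2.23 in the Clec4n-led cluster. H2-Q10 was thus low in the Ngp-led and high in the Clec4n-led cluster in both libraries. Each cluster was among the cells the other was set against, so these calls partly mirror each other. In library 3 the Ngp-led cluster gave 1143 of those cells, and in library 2 the Clec4n-led one gave 1110. The Ngp-led cluster held 1143 of the 2001 neutrophil-like cells of library 3, the library with the least H2-Q10. Library 1's neutrophil-like cells, 530 of them in a cluster led by the platelet genes Gp6, Mylk and Mpig6b, could not be split this way.

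A small neutrophil-like cluster led by Rps20, Rps19 and Rpsa (141 and 103 cells in libraries 2 and 3, median 1086 UMIs) had higher H2-Q7, 1 of the 10 genes against 3.56% of all. H2-Q7 stood at 69.1 and 52.97 CPM there and 6.41 and 7.92 CPM in the other neutrophil-like cells, on 26 and 13 UMIs. The T cell markers, 15 of 15 present, summed to 593 and 697 CPM in the cluster and 49.9 and 48.3 CPM in the others, and the part of that RNA in the H2-Q7 level was not tested.

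The other T-like clusters did not set the members apart by the same rule. The clusters led by Cd4, Cd40lg and Pdlim4, by Ccr9, Gm43698 and Cd8b1, and by Ccl5, Cxcr3 and S100a4 had 0 of the 10 genes higher, against 0.845%, 0.67% and 1.56% of all genes. H2-K1 per H2-D1 UMI was 1.51, 1.29 and 1.33 in the Cd4-led, 1.41, 1.25 and 1.302 in the Ccr9-led and 1.42, 1.26 and 1.32 in the Ccl5-led cluster of libraries 1, 2 and 3.

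Platelet RNA was also spread over B-like cells. The 2 B-like clusters led by platelet genes had 0 of the 10 members called higher (F5, Itga2b, Treml1, against 0.336% of all genes, and Lmna, Tubb2a, Slc6a4, against 2.96%), and leaving out the platelet-gene-led B-like cells changed none of the 3 fixed leading classes.

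Of the 56 other genes of the pathway list found in the matrix, 51 were measured and 20 had a fixed leading class, beside 20.7% of all genes. The genes listed as receptors that read class I molecules, a role not tested here, made up 12 of the 20, each with a fixed class: 8 in NK-like cells, Cd8a and Cd8b1 in T-like cells, and Pirb and Lilrb4a in neutrophil-like cells. Several of them are markers that named the classes, so their place is no finding. Pirb and Lilrb4a are not: Pirb, an inhibitory receptor for class I molecules, had 556, 776 and 746 CPM in neutrophil-like and 282, 689.6 and 545 CPM in monocyte-like cells. Outside the receptors 8 of 39 were fixed, a share at that of all genes. H2-Q6 led in NK-like cells with 233, 268 and 237 CPM, against 108, 114 and 135 CPM in B-like cells, which put the Qa-2 genes H2-Q6 and H2-Q7 in the same leading class. H2-T24 led in neutrophil-like cells (36.7, 18.6 and 17.3 CPM). Hfe, a class I-like gene of iron control, led in monocyte-like cells with 196, 81.7 and 129 CPM and was at most 0.937 CPM in any other leukocyte class. Of the 5 measured genes for other immunoproteasome subunits and the activator only Pomp, an assembly factor, was fixed, in monocyte-like cells, and of the 3 subunits they replace none was. Irf8 led in NK-like and Irf2 in B-like cells, and Canx and Sec61b in monocyte-like cells.

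Across the 15 pools of 5 leukocyte classes and 3 libraries, the members fell into sets by Pearson correlation of log2(CPM + 1), given as a description because pools of a library share its depth and composition and pools of a class share its cells. H2-K1 went with H2-Q7 (r = 0.953), Psmb8 (0.937) and Tap1 (0.780) and against H2-Q10 (-0.877), but not with H2-D1 (-0.075). Psmb8 went with Tap1 (0.9001) and against H2-Q10 (-0.917). These correlations and those below use CPM, which are held down in neutrophil-like cells, and were not repeated with TMM. Tap1 lost its lowest place in neutrophil-like cells under TMM, and how far the sets rest on the scaling was not tested. Among 7480 genes the 3 most like H2-K1 were Tapbpl (0.994), which encodes the tapasin-related peptide editor TAPBPR, Sfxn1 (0.991) and B4galnt1 (0.991). H2-Q10 was most like Amer2 (0.991), Retn (0.991) and Hcar2 (0.98997), and H2-Q7 most like Pdcd4 (0.991), Ppat (0.982) and Sept6 (0.981). H2-D1 was nearest Wdr1 (0.949), Gsap (0.939) and Itgax (0.929), and Psmb8 nearest Gtf3a (0.994), Adh5 (0.993) and Fam53a (0.992). Tap1 was nearest Ddx19a (0.946), Rbm7 (0.942) and Ndufa6 (0.941), Tapbp nearest Pcnx (0.909), Fbxo6 (0.903) and Adam10 (0.893), and B2m nearest Usp9x (0.896), Pcbp2 (0.896) and Gak (0.895). Tap2 (Zfp53 0.869, Uchl5 0.846, Jade2 0.772) and H2-T23 (Mrpl43 0.859, Pex13 0.809, Sap30bp 0.803) had the loosest neighbours.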

How the data were processed

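The values are counts of UMIs per gene and cell in 1 matrix, raw as the authors deposited them. Per the file headers the matrix was written by Cell Ranger 6.0.2, while the submitters' processing notes list the build GRCm38 (mm10), R 4.0.2, Seurat 3.0, Cell Ranger 4.0.0 and Trimmomatic 0.39, and which version set the counts could not be settled. Library totals were 40807434, 30114546 and 36523283 UMIs over 8815, 6648 and 6741 barcodes.

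Cells were kept above a minimum of 200 genes and below 10% of UMIs from mitochondrial genes. Doublets were called per library with Scrublet (scanpy 1.11.5) at 1 score threshold of 0.25, set after the automatic one marked 0.0983% of library 1, and 3.62%, 3.40% and 3.58% of cells were left out. Cells were scaled to 10000 UMIs and clustered on 2000 variable genes without members, pathway genes, haemoglobin, mitochondrial, immunoglobulin, T cell receptor and Y genes or Xist, with 30 components, 15 neighbours and leidenalg 0.10.2 at resolution 1 for classes and 2 for clusters. A class needed 3 markers, each with a log2 fold of 0.5 or more and found in at least 20% of the cells; this scoring was set after the data were seen.

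UMIs were summed per class and library. Poisson intervals were used for CPM, conditional ones for ratios and Clopper-Pearson ones for shares. There is no test between groups, with 1 library per group and no map to libraries. TMM came from edgeR 4.0.16 in R 4.3.3, used for scaling alone. The calls were tested on simulated counts. Genes named are the 10 members, pathway genes with a fixed leading class, the 3 genes most like each member, the 3 leading genes of a cluster and the measures of free RNA and interferon response. The members and lists were chosen with earlier results of these data known. Positions are those of GENCODE M21. The remaining barcodes of the libraries were not analysed here.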

Additional observations from a re-analysis of the deposited data

How the results depend on the processing

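The count of 3 genes with a fixed leading class was within 1.5 times of itself under a stricter cell filter, doublets kept, members allowed in clustering, finer clusters, TMM, totals without S100a8, S100a9 and haemoglobin, no minimum of UMIs and without the platelet-gene-led B-like cells (an alternative chosen after seeing the data). Which genes changed under TMM: 4 were fixed, with H2-D1 in neutrophil-like and Psmb8 in T-like cells and without H2-K1. With 1 library left out the count lay between 3 and 5, and was 5 without library 1, where H2-D1 in NK-like and Tapbp in monocyte-like cells joined; the 3 stayed in each case. Genes at least 1.5 times apart between libraries in neutrophil-like cells were 5 in place of 8 under TMM and 5 with totals without S100a8, S100a9 and haemoglobin. Monocyte-like cells had 5 in place of 2 at resolution 2, where 3 clusters were left unnamed, 1 of them mostly of monocyte-like cells, with H2-Q7 then highest in library 1. With the stricter filter B-like cells had 2, T-like cells 1 and NK-like cells 1, and with doublets kept T-like cells had 1 and NK-like cells 1. NK-like cells had 1 (Tapbp) under TMM and 1 with totals without S100a8, S100a9 and haemoglobin. With intervals excluding 0 on both scales, the log2 ratio of neutrophil-like to B-like cells turned positive under TMM for H2-T23 in libraries 2 (0.61) and 3 (0.75), B2m in library 3 (0.44), Tap2 in libraries 2 (0.59) and 3 (0.56) and Tapbp in libraries 2 (0.92) and 3 (0.92). Without S100a8, S100a9 and haemoglobin in the totals it did so for H2-T23 in library 3 (0.092) and Tapbp in libraries 2 (0.31) and 3 (0.26). For the TMM reversals of B2m in library 3 and of Tap2, which did not occur with these genes left out of the totals, the cause was not tested. B2m in library 2, within counting error of 0 in CPM, turned too (2226 against 1089 CPM under TMM, 1634 against 1219 CPM without those genes). H2-T23 in library 1 moved from -0.246 in CPM to 0.0045 under TMM, within counting error of 0. Of 150 shares of cells, 145 lay outside the thinned interval when unthinned, as deeper cells give more. No paired analysis was possible because each group had 1 library and no label ties a library to a group. Of the leukocyte classes NK-like cells had the fewest cells, 82 in library 2.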
